A study of Mus musculus with 10 samples.

Results

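The genes described here are 31 genes of cholesterol synthesis, its control, and the transport, efflux and storage of cholesterol, out of 55414 genes in the count table. They were taken by symbol: 18 enzymes of sterol synthesis in pathway order, 5 genes of the SREBP control system, and 8 genes of transport, efflux, LXR signalling and storage. All 31 were found and all 31 had enough counts to be tested among 14669 genes. RNA sequencing of polyadenylated RNA had been done on 10 libraries of mouse splenic macrophages, isolated with magnetic beads against F4/80, a surface protein of mature macrophages. In 5 libraries the mice were wild type and of the C57BL/6N strain (WT), and in 5 they were labelled Fpr2KO, and the design text gives them as mice without Fpr2. Fpr2 encodes a formyl peptide receptor that neutrophils, monocytes and macrophages carry. Age, sex, the strain background of the Fpr2KO mice and any treatment are not given in the labels. Nor do they say whether replicates came from separate mice, so the p-values reflect the scatter among these libraries only, and that scatter may be technical.

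Cells make cholesterol from acetyl-CoA through mevalonate, squalene and lanosterol. When sterols in the endoplasmic reticulum run low, the protein SCAP carries the membrane-bound transcription factors SREBP to the Golgi for cleavage, and the released factors switch on the synthesis enzymes. INSIG proteins hold SCAP back when sterols are plentiful. Macrophages of the spleen take up whole red cells and so receive much cholesterol from membranes. They store it as esters or pass it to lipoproteins through ABC transporters, under the sterol-sensing nuclear receptors LXR.

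Libraries held 15865820 to 19060188 counts assigned to genes. Fpr2 had 1983 reads over the WT libraries and 0 reads in every Fpr2KO library, which matched the labels. The 15 red pulp macrophage markers were read in every library, Adgre1 (F4/80) at 419 to 602 CPM (counts scaled to the size of the library), with summed levels of 9002 to 11920 CPM in WT and 9210.0 to 11600.0 CPM in Fpr2KO. Other cells were present too: 8 B cell markers summed to 19740.0 to 43790.0 CPM in WT and 13170.0 to 34380.0 CPM in Fpr2KO. Most of this B cell sum was Ighm, with a WT mean of 26780 CPM against an Fpr2KO mean of 22540 CPM. By edgeR, 7 of the 8 B cell markers had higher estimates in Fpr2KO. At an unadjusted p under 0.05 by edgeR, 3 of the 8 B cell markers were higher and 0 lower, against 4.88% and 4.92% of all genes. The 12 erythroid markers, all 12 with higher estimates in Fpr2KO, summed to 106 to 506 CPM in WT and 527 to 1206 CPM in Fpr2KO, and the 12 cell cycle genes, also 12 of 12 higher, to 317 to 589 and 517 to 701 CPM. All 10 neutrophil markers had lower estimates in Fpr2KO (889 to 1493 CPM summed in WT and 515 to 941 CPM in Fpr2KO), as had all 8 classical monocyte markers (938 to 1459 and 673 to 926 CPM). T cell markers summed to 141 to 188 CPM in WT and 162 to 193 CPM in Fpr2KO, with 7 of 8 estimates higher. Platelet markers summed to 23.2 to 44.4 and 18.6 to 29.3 CPM, with all 5 tested lower. Stromal and endothelial markers summed to 213 to 269 and 233 to 261 CPM, with 5 of 7 tested lower. Cd4 made up most of the T cell sum (mean 107 CPM in WT and 102 CPM in Fpr2KO). Pecam1 made up most of the stromal and endothelial sum (mean 209 and 218 CPM). Gp1bb of platelets and Lum of stroma were at or near 0. At the same unadjusted level, the erythroid markers had 12 higher and 0 lower, and the cell cycle genes 11 and 0. The neutrophil markers had 0 higher and 7 lower, the classical monocyte markers 0 and 6, and the platelet markers 0 and 4. The T cell markers had 0 and 0, the stromal and endothelial markers 0 and 1, and the red pulp macrophage markers 1 and 1. In these bulk samples fewer cells of a type and less RNA per cell cannot be told apart.

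Fpr2KO replicate 2 stood apart in how its counts depended on base composition. Over 9823 genes whose mean log2 CPM reached 3, the level relative to the mean of the 10 libraries fell by 0.26 on the log2 scale for each 10 points of GC percent of the longest transcript in this library. The other libraries had slopes between -0.14 in WT replicate 2 and 0.15 in Fpr2KO replicate 5. WT replicates 1, 2 and 5 also had negative slopes, and WT replicates 3 and 4 and Fpr2KO replicates 1, 3, 4 and 5 positive ones. Fpr2KO replicate 2 had the highest mitochondrial share of counts in its group (6.04%, against 3.22% to 3.99% in the others and 4.83% to 6.09% in WT) and the fewest genes with a count (21316). Results below are therefore also given without this library, and from a fit with a GC offset for each library that was added after the data were seen.

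No gene of the 31 passed a false discovery rate (FDR) of 0.05, and the lowest FDR among them was 0.329 by edgeR. Over all genes tested the rate of calls was 0.0682%, 10 of 14669. At an unadjusted p under 0.05, 2 of the 31 were higher and 2 lower in Fpr2KO, 6.45% each way, against 4.88% higher and 4.92% lower over all genes, so these shares were near the background. DESeq2 and limma voom also called 0 of the 31 at an FDR of 0.05, where they called 185 and 13 genes over all. Levels of all Fpr2KO libraries lay above all WT libraries for 3 of the 31 genes (9.68%), Hmgcs1, Sqle and Dhcr7, against 0.825% of all genes, and for 0 genes all Fpr2KO libraries lay below, against 0.566%. In either direction this held for 1.39% of all genes. Without Fpr2KO replicate 2 these 3 genes were bound to stay above, so this is no check of them. No other gene of the 31 joined them, while the share of all genes rose to 2.67%. In that set 0 of the 31 lay below, against 1.85% of all genes. Of the 18 enzymes 16 had higher estimates in Fpr2KO (88.9%, against 53.2% of all genes), with a median log2 fold change of 0.13 against 0.01 over all genes. This count was 13 of 18 without WT replicate 1, 14 without WT replicate 5, without Fpr2KO replicate 2 or without Fpr2KO replicate 5, and 15 without Fpr2KO replicate 1. The medians were 0.04 for the 5 control genes and 0.04 for the 8 genes of transport and efflux. The 31 genes were chosen with earlier results of these data known, so these counts are descriptions.

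**Figure D1:**
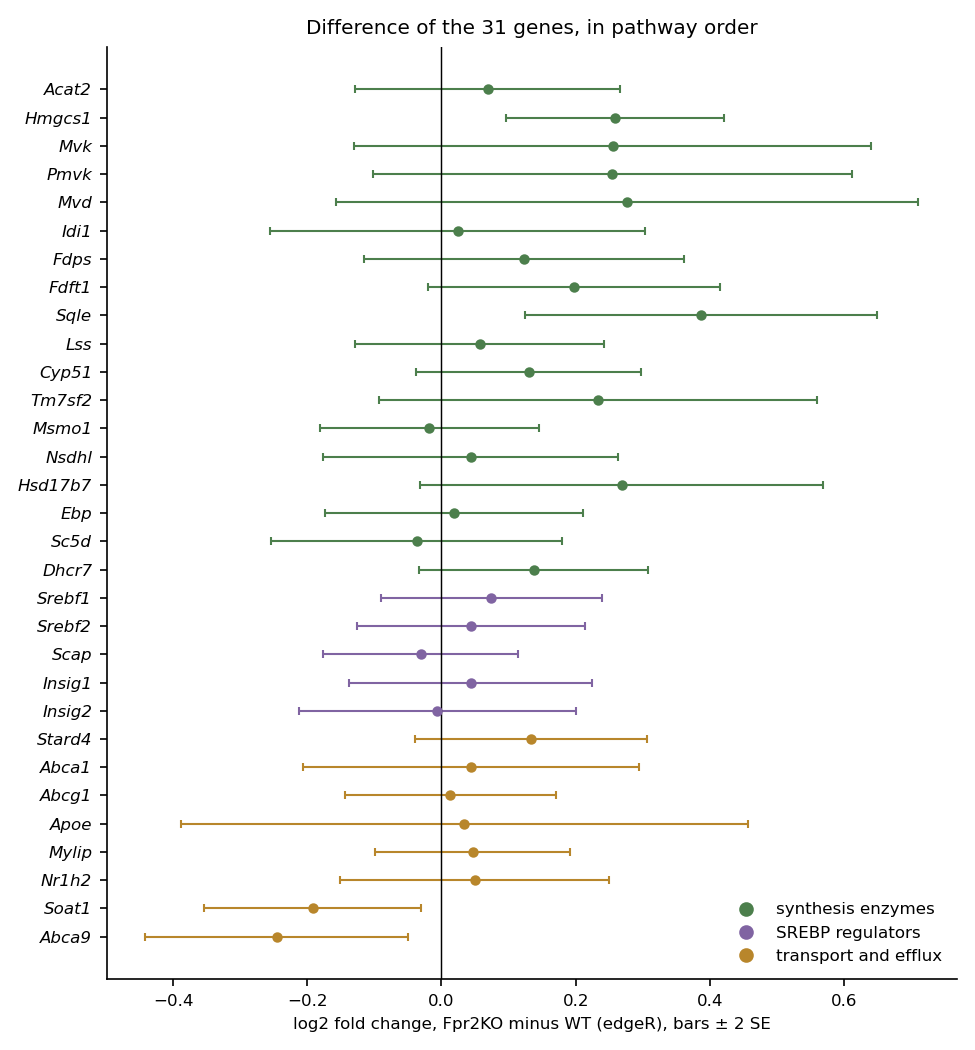
Log2 fold change of each of the 31 genes (x axis, Fpr2KO minus WT, edgeR, n = 5 and 5; bars are ± 2 SE) in pathway order from top to bottom, coloured by role. Most enzymes lie to the right of 0, with the bars of Hmgcs1 and Sqle alone among them clear of it, and those of Soat1 and Abca9 lie clear of 0 on the left; none passed the FDR over all genes.

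Per kb of exonic length, most enzymes were read somewhat below the median of all genes tested and most control and efflux genes above it. Ebp, Pmvk, Hmgcs1, Mvd and Cyp51 were the enzymes above that median. The enzymes had a median of 3.35 CPM per kb of exonic length, from 1.07 in Hsd17b7 to 12.9 in Ebp, where the median of all genes tested was 5.01 CPM per kb. The control genes had a median of 11.4 CPM per kb, from 5.29 in Insig2 to 31.6 in Srebf2. The transport and efflux genes had a median of 16.9 CPM per kb, from 3.92 in Stard4 to 575 in Apoe. Apoe, which encodes the apolipoprotein E that macrophages secrete with cholesterol, was read far above every other gene of the 31 on this scale, and Nr1h2, which encodes LXR beta, came next at 32.1 CPM per kb. Exonic length counts all annotated exons of a gene, for Lss 10787 bases where its longest transcript has 6992, so a gene with many exon forms comes out low.

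**Figure D2:**
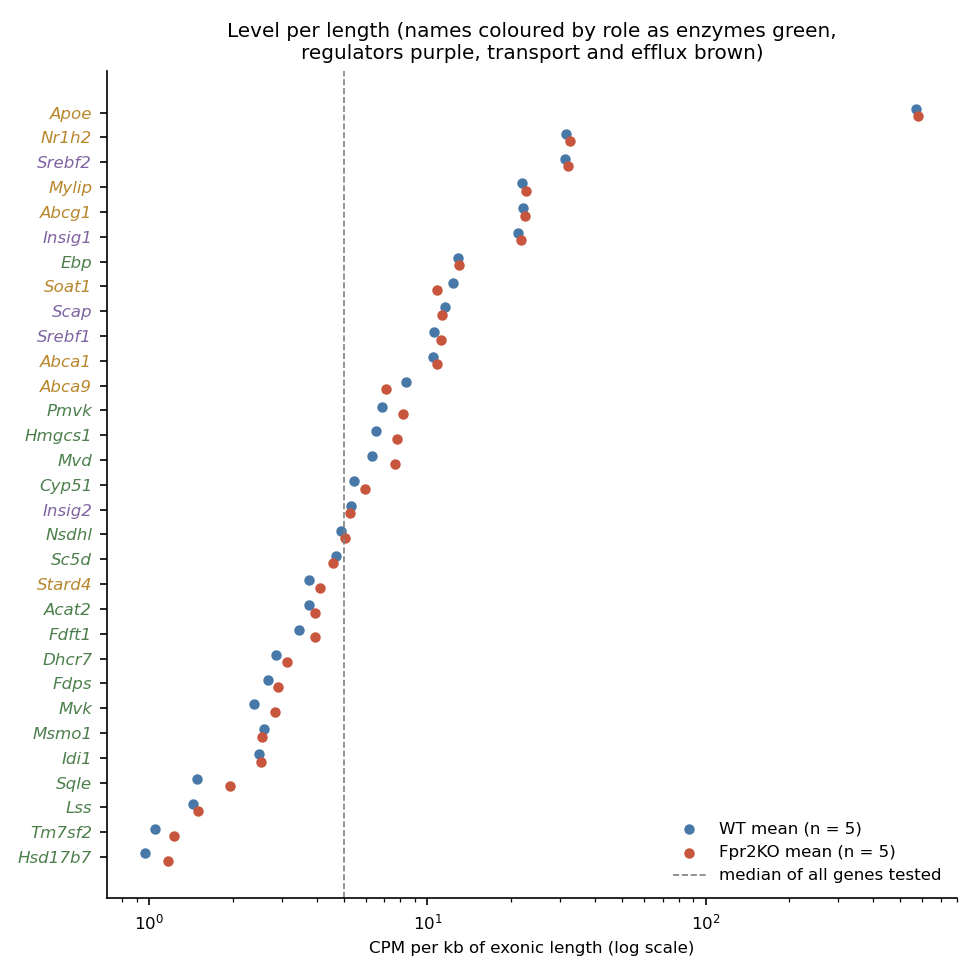
Mean level of each of the 31 genes in CPM per kb of exonic length (log axis) in WT (blue) and Fpr2KO (red), n = 5 each, ordered by the mean of both, with a dashed line at the median of all genes tested (5.01). Apoe stands alone at 575, and most enzymes lie to the left of the line.

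In the first steps, from acetyl-CoA to mevalonate and the activated isoprene unit, the member with the smallest p was Hmgcs1, the cytosolic HMG-CoA synthase. Hmgcs1 was measured at 29.1, 28.3, 32.1, 31.3 and 29.0 CPM in WT replicates 1 to 5 and 34.0, 41.4, 33.8, 34.8 and 35.2 CPM in Fpr2KO replicates 1 to 5. All 5 Fpr2KO libraries lay above the highest WT library, by the least in replicate 3 and by the most in replicate 2. Its means were 29.9 ± 1.65 CPM for WT against 35.8 ± 3.15 CPM for Fpr2KO (SD, n = 5 each), a difference of 19.6% (edgeR log2 fold change 0.26 with an SE of 0.08 and an FDR of 0.329, unadjusted p = 0.00668). Without Fpr2KO replicate 2 the log2 fold change was 0.19 (FDR = 0.225 by edgeR), and with the GC offset it was 0.29 (FDR = 0.184 by edgeR). An antisense gene, Gm48342, overlaps 557 bases of its exons, and the strand setting of the counting is not known.

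Acat2, which joins acetyl-CoA units in the cytosol, had a log2 fold change of 0.07 (± 2 SE, -0.13 to 0.27). It shares 43.8% of its 31-base sequences with other genes, most with Acat3, so its count is uncertain. The mevalonate kinase Mvk, the phosphomevalonate kinase Pmvk and the decarboxylase Mvd, which act in a row, had log2 fold changes of 0.26, 0.25 and 0.28, near that of Hmgcs1. Their errors were wider, with SE of 0.19, 0.18 and 0.22. Mvk, Pmvk and Mvd were picked for description after their spread between libraries had been seen. Pmvk was measured at 10.3, 10.3, 12.9, 13.9 and 11.4 CPM in WT replicates 1 to 5 and 15.7, 7.82, 13.9, 15.8 and 16.9 CPM in Fpr2KO replicates 1 to 5. Fpr2KO replicate 2 was the lowest of all 10 libraries, while replicate 3 lay just under the highest WT library and replicates 1, 4 and 5 above it. Mvd had the widest spread of the enzymes, with a coefficient of variation of 27.0% in WT and 27.3% in Fpr2KO, where counting alone gives 7.01% and 6.35%. Without Fpr2KO replicate 2 the log2 fold change of Pmvk was 0.40 (SE 0.12, FDR = 0.172 by edgeR) and that of Mvk 0.37 (SE 0.17, FDR = 0.271 by edgeR), and with the GC offset they were 0.18 and 0.19. Idi1, the isopentenyl diphosphate isomerase, had a log2 fold change of 0.02, and 27.1% of its 31-base sequences occur elsewhere, most in the pseudogene Gm13502.

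In the middle of the pathway farnesyl diphosphate is made by Fdps, joined to squalene by Fdft1, squalene synthase, oxidised by Sqle, squalene epoxidase, and closed to lanosterol by Lss. Sqle, a rate-limiting enzyme of the later pathway, had the largest log2 fold change of the 31. Its level was 8.78, 6.54, 9.19, 8.85 and 7.95 CPM in WT replicates 1 to 5 and 10.2, 9.58, 9.58, 13.01 and 11.6 CPM in Fpr2KO replicates 1 to 5. The lowest Fpr2KO libraries, replicates 2 and 3, lay just above the highest WT library, replicate 3, so the groups did not overlap. The means were 8.26 ± 1.07 CPM for WT against 10.8 ± 1.48 CPM for Fpr2KO (SD, n = 5 each), a difference of 30.8% (edgeR log2 fold change 0.39 with an SE of 0.13 and an FDR of 0.364, unadjusted p = 0.0104). The log2 fold change was 0.42 without Fpr2KO replicate 2 (FDR = 0.189 by edgeR) and 0.40 with the GC offset (FDR = 0.282 by edgeR).

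Fdft1 was measured at 12.6, 13.3, 15.5, 16.2 and 15.3 CPM in WT replicates 1 to 5 and 15.9, 15.5, 15.1, 19.6 and 17.6 CPM in Fpr2KO replicates 1 to 5. The groups overlapped, with Fpr2KO replicates 1, 2 and 3 inside the WT range and replicates 4 and 5 above it (edgeR log2 fold change 0.20 with an SE of 0.11 and an FDR of 0.573). Of its exons 774 bases lie opposite those of Ctsb, a lysosomal protease gene, so its count depends on the unknown strand setting. Fdps, with a log2 fold change of 0.12 (± 2 SE, -0.12 to 0.36), overlaps Gm43738 on the same strand over 1124 bases. Lss lay between 15.7 and 16.3 CPM in Fpr2KO and ranged from 13.9 to 17.6 CPM in WT (log2 fold change 0.06). Its coefficient of variation in Fpr2KO was 1.51%, less than the 5.96% that counting alone gives.

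From lanosterol to cholesterol, 8 enzymes were measured. Dhcr7, a late sterol reductase, was measured at 16.6, 17.02, 16.7, 17.02 and 15.5 CPM in WT replicates 1 to 5 and 17.4, 17.1, 17.7, 20.1 and 18.7 CPM in Fpr2KO replicates 1 to 5. All Fpr2KO libraries lay above all WT libraries, but the gap was narrow: the highest WT libraries (replicates 2 and 4) and Fpr2KO replicate 2 nearly met. The means were 16.6 ± 0.625 CPM for WT against 18.2 ± 1.20 CPM for Fpr2KO (SD, n = 5 each) (edgeR log2 fold change 0.14 with an SE of 0.09 and an FDR of 0.627, unadjusted p = 0.131). Ebp, the sterol isomerase and the enzyme with the highest level per length, was measured at 27.7, 26.1, 35.4, 30.7 and 28.6 CPM in WT replicates 1 to 5 and 31.7, 27.2, 29.7, 28.5 and 33.2 CPM in Fpr2KO replicates 1 to 5. Its groups overlapped throughout, with the highest value in WT replicate 3 and the lowest in WT replicate 2 (edgeR log2 fold change 0.02 with an SE of 0.10 and an FDR of 0.965).

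Among the others, Cyp51, the lanosterol demethylase, had a log2 fold change of 0.13 (± 2 SE, -0.04 to 0.30), the keto reductase Hsd17b7 0.27 (-0.03 to 0.57) and the sterol reductase Tm7sf2 0.23 (-0.09 to 0.56), which shares 532 exonic bases with Vps51 on the same strand. The dehydrogenase Nsdhl had 0.04 (-0.18 to 0.26). The methylsterol oxidase Msmo1 and the desaturase Sc5d were the 2 enzymes with lower estimates, -0.02 (-0.18 to 0.15) and -0.04 (-0.25 to 0.18). With the GC offset these 2 had small positive estimates, and all 18 enzymes were then on the higher side, against 53% of all genes. Msmo1 varied least of the enzymes in WT, with a coefficient of variation of 1.73% where counting alone gives 6.05%. Nsdhl and Ebp lie on the X chromosome.

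**Figure D3:**
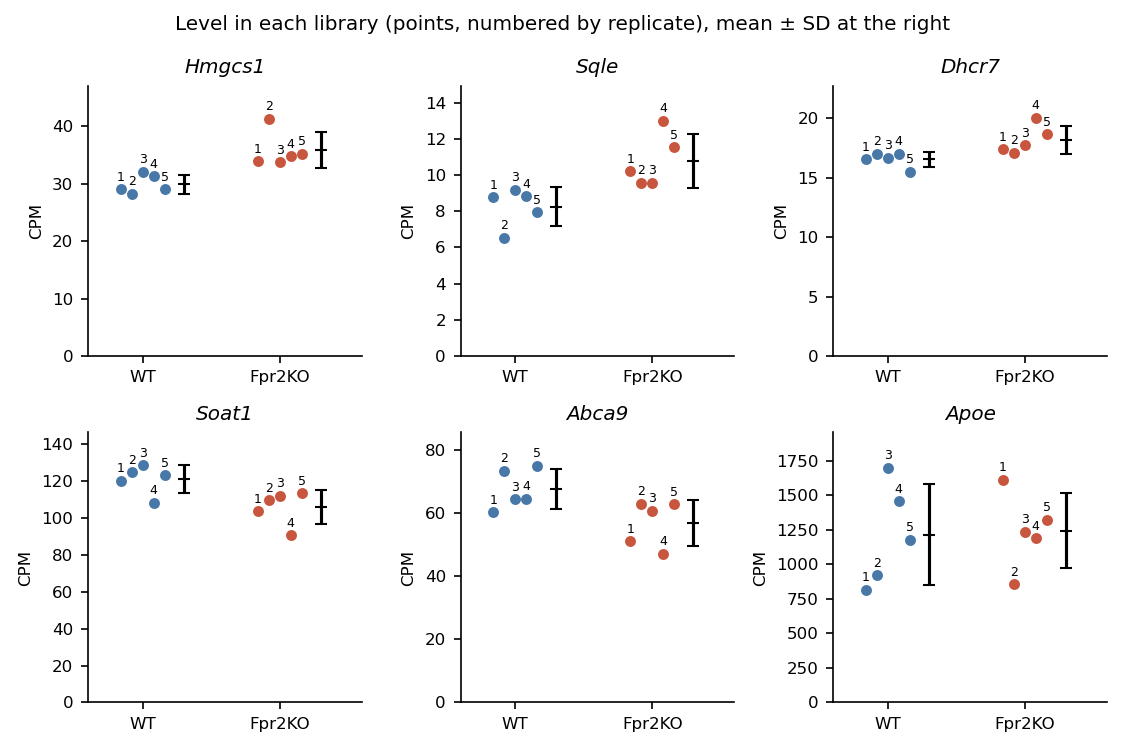
Level of 6 of the genes in CPM in each library (points numbered by replicate, y axes from 0), with the mean and SD of each group at its right. Hmgcs1, Sqle and Dhcr7 do not overlap between WT and Fpr2KO, Soat1 and Abca9 overlap with lower means in Fpr2KO, and Apoe spreads from 816 to 1701 CPM within WT.

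The mean log2 level of the 18 enzymes, taken relative to the WT mean, lay between -0.07 and 0.09 in the WT libraries. In Fpr2KO replicates 1 to 5 it was 0.17, -0.01, 0.06, 0.25 and 0.24. Fpr2KO replicates 1, 4 and 5 were above every WT library, replicate 3 was inside the WT range and replicate 2 was just under the WT mean. Within Fpr2KO, replicate 2 was the lowest for 8 enzymes and replicate 3 for another 8, and in WT the lowest library was replicate 2 for 8 enzymes and replicate 1 for 6. The libraries of WT replicates 1 and 2 and Fpr2KO replicate 2 with low enzyme levels also had the 3 steepest negative GC slopes. Marker scores, taken the same way, differed in where they peaked within Fpr2KO. The erythroid score was highest in replicate 1 (2.40) and lowest in replicate 4 (1.29), and the cell cycle score highest in replicate 2 (0.67) and lowest in replicate 5 (0.36). In replicate 4, where the enzyme score was highest, the neutrophil and classical monocyte scores were lowest (-0.997 and -0.945) and the B cell and T cell scores highest (0.43 and 0.49). In replicate 5, where the enzyme score was nearly as high, the classical monocyte score was highest (-0.33) and the B cell and T cell scores lowest (-0.11 and 0.05). The part of these cells in the enzyme levels was not tested.

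The promoters of 4 of the genes are shown, picked after their values had been seen: 2 of the 3 enzymes whose groups did not overlap, and the 2 genes lower in Fpr2KO at an unadjusted p under 0.05. They are the 150 bases before the start in RefSeq (GRCm38.p6), ended where GENCODE M21 begins the first exon if that lies upstream. Capitals mark TCACNCCAC, a form of the sterol regulatory element bound by SREBP, CCAAT, the box bound by NF-Y, and GGGCGG, a GC box bound by Sp1, on either strand.
Hmgcs1, chr13:119690201-119690350, plus strand: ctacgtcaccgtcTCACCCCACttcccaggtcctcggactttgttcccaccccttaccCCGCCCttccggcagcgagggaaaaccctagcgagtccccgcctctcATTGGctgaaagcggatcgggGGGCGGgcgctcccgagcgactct
Dhcr7, chr7:143822995-143823144, plus strand: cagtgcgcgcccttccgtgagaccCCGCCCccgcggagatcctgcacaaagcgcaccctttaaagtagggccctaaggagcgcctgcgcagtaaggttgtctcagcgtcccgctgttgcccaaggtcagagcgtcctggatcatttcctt
Soat1, chr1:156474332-156474481, minus strand: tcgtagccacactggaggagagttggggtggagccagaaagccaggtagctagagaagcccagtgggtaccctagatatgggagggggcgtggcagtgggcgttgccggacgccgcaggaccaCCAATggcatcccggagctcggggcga
Abca9, chr11:110168197-110168346, minus strand: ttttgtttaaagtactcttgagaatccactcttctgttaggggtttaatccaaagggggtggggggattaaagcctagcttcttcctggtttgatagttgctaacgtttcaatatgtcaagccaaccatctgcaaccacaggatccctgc
Hmgcs1 has each of the 3 motifs in this stretch, Dhcr7 only a GC box, Soat1 only a CCAAT box and Abca9 none. A RefSeq promoter was found for 26 of the 31 genes, some with several starts, and not for Fdps, Fdft1, Sqle, Stard4 and Abcg1. Within 250 bases before a start, CCAAT occurred in 14 of 15 enzymes, in 4 of 5 control genes and in 2 of 6 transport and efflux genes (Mylip and Soat1), against 37.5% of all genes with a promoter and 40.5% of those tested here. GGGCGG occurred in 14 of 15 enzymes, 5 of 5 control genes and 2 of 6 transport and efflux genes, against 35.4% of all and 61.5% of tested genes. TCACNCCAC occurred in Hmgcs1 alone of the 26, against 1.23% of all and 1.21% of tested genes, and the looser CACNCCAC, which overlaps it, in Acat2, Hmgcs1 and Insig1, against 6.05% and 6.60%. These are matches of letters, not sites shown to be bound, and elements of other spelling were not searched.

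None of the 5 control genes had an unadjusted p under 0.05, and their log2 fold changes lay between -0.03 and 0.07. Srebf2, which encodes the main SREBP of sterol synthesis and was the highest of them per length, was measured at 224, 211, 225, 225 and 234 CPM in WT replicates 1 to 5 and 221, 196, 222, 259 and 254 CPM in Fpr2KO replicates 1 to 5. Fpr2KO replicate 2 was the lowest library of all and replicates 4 and 5 the highest, so the groups overlapped (edgeR log2 fold change 0.04 with an SE of 0.09 and an FDR of 0.891). Srebf1, whose products act more on fatty acid genes, was measured at 60.2, 58.1, 64.3, 55.0 and 60.9 CPM in WT replicates 1 to 5 and 58.1, 55.1, 62.3, 70.3 and 68.3 CPM in Fpr2KO replicates 1 to 5. Its highest libraries were again Fpr2KO replicates 4 and 5, its lowest WT replicate 4 and Fpr2KO replicate 2, and the groups overlapped (edgeR log2 fold change 0.07 with an SE of 0.08 and an FDR of 0.788). Insig1, itself a target of SREBP and so a readout of the pathway, was measured at 69.6, 69.5, 69.6, 56.9 and 60.7 CPM in WT replicates 1 to 5 and 56.5, 67.6, 65.5, 72.7 and 74.1 CPM in Fpr2KO replicates 1 to 5. The lowest value was in Fpr2KO replicate 1 and the next in WT replicate 4 (edgeR log2 fold change 0.04 with an SE of 0.09 and an FDR of 0.897). The ± 2 SE ranges were -0.13 to 0.21 for Srebf2, -0.14 to 0.22 for Insig1, -0.21 to 0.20 for Insig2 and -0.18 to 0.11 for Scap, on the log2 scale. With the GC offset Srebf1 and Srebf2 had log2 fold changes of 0.00 and -0.03. Of the exons of Scap, 985 bases lie opposite another annotated gene, so its count depends on the strand setting as well.

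Of the transport, efflux and storage genes, Abca9 and Soat1 had the smallest p-values and both had lower means in Fpr2KO. Abca9, a member of the ABCA family of lipid transporters, was measured at 60.4, 73.6, 64.5, 64.6 and 75.1 CPM in WT replicates 1 to 5 and 51.3, 63.1, 60.9, 47.2 and 62.9 CPM in Fpr2KO replicates 1 to 5. Fpr2KO replicates 1 and 4 were the lowest of all libraries, and replicates 2, 3 and 5 lay within the WT range. The means were 67.7 ± 6.37 CPM for WT against 57.1 ± 7.34 CPM for Fpr2KO (SD, n = 5 each), a difference of -15.6% (edgeR log2 fold change -0.25 with an SE of 0.10 and an FDR of 0.443, unadjusted p = 0.025). Soat1, which esterifies cholesterol for storage in lipid droplets, was measured at 120.4, 125, 129, 108 and 123 CPM in WT replicates 1 to 5 and 104, 109.8, 112, 90.7 and 114 CPM in Fpr2KO replicates 1 to 5. Fpr2KO replicates 1 and 4 lay below every WT library, and WT replicate 4 lay inside the Fpr2KO range. The means were 121 ± 7.70 CPM for WT against 106 ± 9.34 CPM for Fpr2KO (SD, n = 5 each) (edgeR log2 fold change -0.19 with an SE of 0.08 and an FDR of 0.464, unadjusted p = 0.032). Neither gene had an unadjusted p under 0.05 without WT replicate 2 or without Fpr2KO replicate 4. Without WT replicate 3 or with the GC offset this was lost by Soat1, and without WT replicate 5 or Fpr2KO replicate 1 by Abca9. Neutrophil and classical monocyte markers were lower in Fpr2KO as well (values above), and their part in these differences was not tested.

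Stard4, a soluble carrier of cholesterol between membranes and a target of SREBP, was measured at 21.8, 21.2, 21.7, 21.6 and 18.3 CPM in WT replicates 1 to 5 and 21.9, 24.5, 20.9, 23.2 and 24.1 CPM in Fpr2KO replicates 1 to 5. The value of WT replicate 5 was the lowest, and the other 4 WT libraries lay close together inside the Fpr2KO range (edgeR log2 fold change 0.13 with an SE of 0.09 and an FDR of 0.641). Apoe was measured at 816, 924, 1701, 1456 and 1178 CPM in WT replicates 1 to 5 and 1612, 857, 1236, 1190.0 and 1323 CPM in Fpr2KO replicates 1 to 5. The spread within WT reached from the lowest to the highest of all libraries, with WT replicates 1 and 2 and Fpr2KO replicate 2 at the low end, and the fit gave a range of -0.39 to 0.46 (± 2 SE) around its log2 fold change of 0.03. Counting error was 0.689% of the mean level of Apoe in WT and 0.68% in Fpr2KO, against coefficients of variation of 30.2% in WT and 21.8% in Fpr2KO.

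The LXR-driven efflux transporters did not differ beyond their errors. Abca1, which loads cholesterol onto apolipoprotein A-I, had 109 ± 10.99 CPM for WT against 112 ± 22.7 CPM for Fpr2KO (SD, n = 5 each), with its highest value in Fpr2KO replicate 2 (140.4 CPM) and its lowest in replicates 4 and 5 (89.9 and 91.3 CPM; edgeR log2 fold change 0.04 with an SE of 0.13 and an FDR of 0.932). Abcg1, which passes cholesterol to high-density lipoprotein, had a log2 fold change of 0.01 with a ± 2 SE range of -0.14 to 0.17. Mylip, an LXR-induced ubiquitin ligase that marks lipoprotein receptors for degradation, had 0.05 (-0.10 to 0.19), and Nr1h2 had 0.05 (-0.15 to 0.25). The library values of Abca1 were picked after they had been seen.

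Across all 3 roles the deviation of Fpr2KO replicate 2 went with the base composition of the transcript. Relative to the mean of the other 4 Fpr2KO libraries, on the log2 scale, Pmvk (56.95% GC) was at -0.98, Mvd (59.0%) at -0.85, Mvk (56.3%) at -0.78, Apoe (59.5%) at -0.64, Tm7sf2 (51.0%) at -0.56 and Nr1h2 (60.6%) at -0.42 in this library. Other GC-rich genes deviated less, with Srebf2 (57.9%) at -0.28, Srebf1 (58.4%) at -0.23 and Scap (59.1%) at -0.15. At the other end, Idi1 (41.9%) was at 0.44, Abca1 (47.5%) at 0.44, Insig2 (46.0%) at 0.36, Nsdhl (45.8%) at 0.31 and Hmgcs1 (43.1%) at 0.26. Other GC-poor genes were raised less, with Abca9 (44.2%) at 0.19, Stard4 (43.9%) at 0.12 and Soat1 (44.1%) at 0.07. Msmo1 (44.7%) at -0.07, Sc5d (42.9%) at -0.09, Cyp51 (46.2%) at -0.14 and Hsd17b7 (43.9%) at -0.14 went the other way. Spearman's rho between the GC percent of the 31 genes and their level relative to the mean of the 10 libraries was -0.71 in Fpr2KO replicate 2, a description across genes, which are not independent replicates. In the other libraries it ran from -0.44 in WT replicate 2 to 0.53 in Fpr2KO replicate 3. Over 9823 genes rho was -0.68 in Fpr2KO replicate 2. Leaving this library out, 5 of the 31 genes were higher at an unadjusted p under 0.05, namely Hmgcs1, Mvk, Pmvk, Sqle and Tm7sf2, against 9.29% of all genes, and 2 were lower, Soat1 and Abca9, against 8.14%. With the GC offset Hmgcs1 and Sqle were higher, against 5.54% of all genes, and Abca9 was lower, against 6.03%. None of the 31 passed the FDR in either fit by edgeR. What made the base composition of the counts differ between libraries was not tested.

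**Figure D4:**
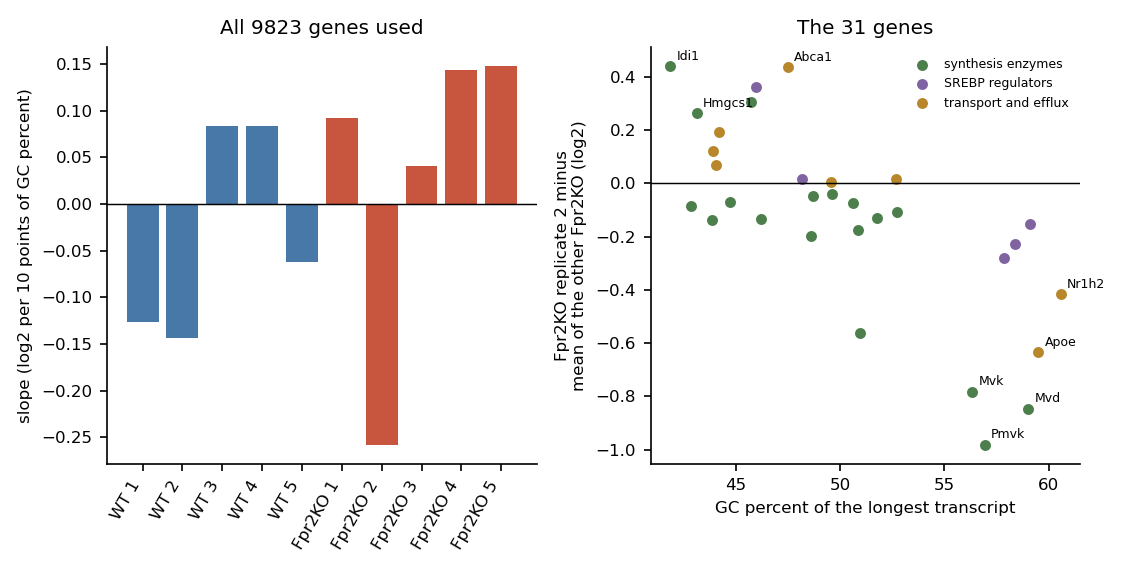
Left, slope of the level of a gene (log2 CPM relative to the mean of the 10 libraries) on the GC percent of its longest transcript, per 10 points, over 9823 genes, for each WT (blue) and Fpr2KO (red) library. Right, the 31 genes by GC percent (x axis) and by their level in Fpr2KO replicate 2 relative to the mean of the other 4 Fpr2KO libraries (y axis, log2), coloured by role; GC-rich Pmvk, Mvd, Mvk and Apoe lie lowest, between -0.98 and -0.64.

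**Figure D5:**
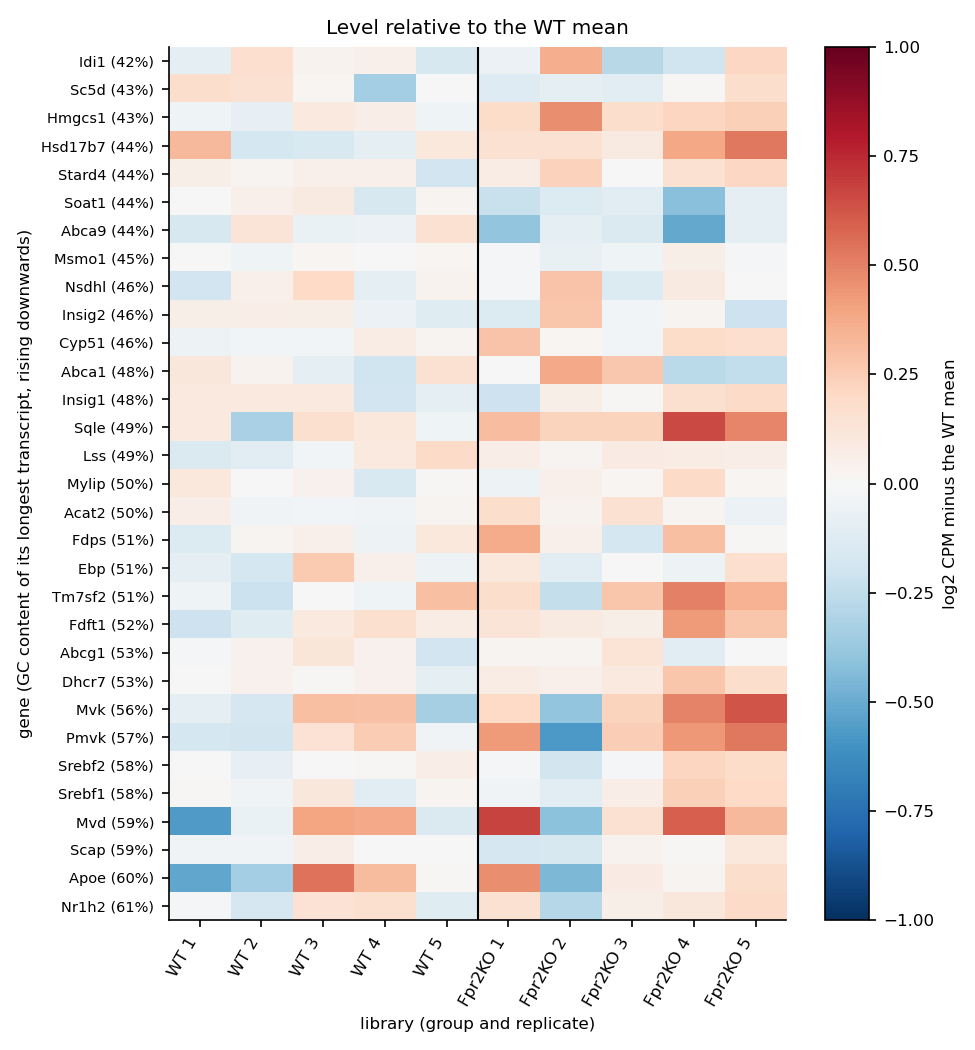
Level of each of the 31 genes (rows, ordered by GC percent of the longest transcript) in each library (columns), as log2 CPM minus the WT mean, red higher and blue lower. The GC-rich genes at the bottom, such as Pmvk, Mvd, Apoe and Nr1h2, are low together in Fpr2KO replicate 2, where Hmgcs1, Idi1 and Abca1 are high.

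Another 55 genes of sterol and lipid handling, in 6 lists, give the surroundings of the pathway. Of these 51 were tested, 0 passed the FDR, and at an unadjusted p under 0.05 there was 1 higher (1.96%) and 5 lower (9.80%), against 4.88% and 4.92% of all genes. Their median log2 fold change was -0.01. The 8 genes of the isoprenoid branch (median 0.00) and the 7 of SREBP processing (median 0.05) held none at this level, nor did the 11 fatty acid targets of SREBP1 (median -0.01). The 13 genes of uptake and lysosomal handling had a median of -0.09, with 4 lower (Gramd1b, Msr1, Lrp1 and Lipa), and the 4 tested genes of esters and oxysterols a median of -0.19, with 1 lower (Plin2). The 8 tested LXR targets and efflux genes had a median of 0.10, with 1 higher (Abcg4).

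The 5 of these genes with the smallest p-values were Plin2, Gramd1b, Abcg4, Msr1 and Lrp1. Plin2, which coats lipid droplets and so lies beside Soat1 in storage, was measured at 104, 118, 109, 118 and 94.2 CPM in WT replicates 1 to 5 and 93.0, 94.1, 88.3, 67.7 and 94.2 CPM in Fpr2KO replicates 1 to 5. WT replicate 5 lay at the top of the Fpr2KO range, level with Fpr2KO replicates 2 and 5, and Fpr2KO replicate 4 was the lowest, with a log2 fold change of -0.31 (edgeR, SE 0.10 and FDR 0.331). Gramd1b, which carries cholesterol from the plasma membrane to the endoplasmic reticulum, was measured at 63.2, 66.3, 61.4, 48.4 and 50.2 CPM in WT replicates 1 to 5 and 50.4, 51.2, 48.8, 38.0 and 42.4 CPM in Fpr2KO replicates 1 to 5. WT replicates 1, 2 and 3 lay above every Fpr2KO library and WT replicates 4 and 5 among them, with a log2 fold change of -0.33 (edgeR, SE 0.11 and FDR 0.357). Msr1, a scavenger receptor for modified lipoproteins, was measured at 17.2, 22.8, 18.9, 12.96 and 17.8 CPM in WT replicates 1 to 5 and 12.8, 14.1, 16.4, 11.97 and 15.4 CPM in Fpr2KO replicates 1 to 5. WT replicate 4 lay among the low Fpr2KO libraries and the other WT libraries above all of them, with a log2 fold change of -0.35 (edgeR, SE 0.14 and FDR 0.448). Lrp1, an endocytic receptor that binds apolipoprotein E, was measured at 709, 846, 928, 663 and 754 CPM in WT replicates 1 to 5 and 579.9, 589, 687, 599.8 and 813 CPM in Fpr2KO replicates 1 to 5. Fpr2KO replicate 5 lay within the upper WT range and Fpr2KO replicates 1, 2 and 4 below every WT library, with a log2 fold change of -0.25 (edgeR, SE 0.12 and FDR 0.503). Abcg4, a transporter related to Abcg1, was measured at 0.573, 0.378, 0.176, 1.599 and 2.27 CPM in WT replicates 1 to 5 and 2.60, 2.36, 2.80, 1.80 and 4.15 CPM in Fpr2KO replicates 1 to 5. Its level was low, WT replicate 5 lay within the Fpr2KO range and WT replicate 4 just under it, and the log2 fold change was 1.45 (edgeR, SE 0.50 and FDR 0.388). The WT libraries with the lowest Abcg4, replicates 1, 2 and 3, also had the lowest erythroid scores in WT (0.12, -0.29 and -1.97), and the part of other cells in Abcg4 was not tested.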

How the data were processed

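RNA of 10 libraries of F4/80-selected splenic macrophages, 5 WT and 5 Fpr2KO by the genotype label, was sequenced by the authors from polyadenylated RNA, per the labels' protocols. The deposited values are raw counts of reads per Ensembl gene, whole numbers with no normalization by the authors. The submitters' processing notes name HTSeq 0.10.0, FastQC 0.10.1 and the builds mm10 and GRCm38. For the aligner, the strand setting and the gene models, nothing was given in the sources used here.

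Symbols, positions and lengths came from GENCODE M21 (GRCm38), which matched 52133 of 55414 identifiers, and promoters from RefSeq GRCm38.p6. The tests were run with edgeR 4.0.16 under R 4.3.3: filterByExpr (14669 genes), TMM scaling, robust quasi-likelihood fits and glmQLFTest, two-sided, with Benjamini-Hochberg adjustment over all genes tested and a threshold of 0.05. The SE was taken as the size of the log2 fold change divided by the square root of F, and log2 CPM used a prior count of 2. The scripts were tested on simulated data. Alternatives were other scalings, filters, DESeq2 1.42.0, limma 3.58.1 (voom), a replicate block and leaving out each library. The GC offset, a loess curve of the level on the GC percent of the longest transcript in each library, was chosen after seeing the data.

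The 31 genes and the lists beside them were chosen with earlier results of these data known. Values in every library are given, per role, for the 3 genes with the smallest p and the one highest per length, and for genes whose groups did not overlap, and of the surrounding genes for the 5 with the smallest p. The other genes are given by ranges, means or fold changes. The number of libraries and of reads limits the precision of every value.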

Additional observations from a re-analysis of the deposited data

Results flagged for a closer look

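Within groups of 5 libraries, 62 sets of levels of the 31 genes were looked at for a library far from the others by Dixon's test at its 95% level, and 3 held one. Chance gives about 1 in 20, which is close to that number. Hmgcs1 was at 41.4 CPM in Fpr2KO replicate 2, where the next library of the group was at 35.2 CPM. Lss was at 15.7 CPM in Fpr2KO replicate 2, against 16.1 CPM for the next. This group varied by a coefficient of only 1.51%, where counting alone gives 5.96%. Stard4 was at 18.3 CPM in WT replicate 5, against 21.2 CPM for the next. 2 of the 3 were in Fpr2KO replicate 2, the library with the steepest GC slope.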

How the results depend on the processing

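None of the 31 genes, nor of the surrounding genes, passed the FDR in any of the 17 alternatives chosen at the start or with the GC offset. The count over all genes moved from 10 to 62 with no filter, 185 with DESeq2 and 64 with the replicate block, and ranged from 8 to 51 when 1 library was left out: 51 without WT replicate 5, and 26 without WT replicate 4 and without Fpr2KO replicate 2. The cause was not tested. The median log2 fold change of the enzymes ranged from 0.11 to 0.18 when 1 library was left out and from 0.12 to 0.15 otherwise. That of the control genes ranged from -0.0021 without WT replicate 4 to 0.05 when 1 library was left out. Otherwise it ranged from 0.00 with the GC offset to 0.07 with upper quartile scaling. That of the transport and efflux genes ranged from 0.01 to 0.04 when 1 library was left out. Otherwise it ranged from -0.024 with the GC offset to 0.06 with upper quartile scaling. Hmgcs1, Sqle, Dhcr7, Soat1 and Abca9 kept their direction in all 18 alternatives, but so did genes with small estimates, such as Acat2, Lss, Mylip and Scap. Groups that do not overlap, as in Hmgcs1, Sqle and Dhcr7, stay apart when 1 library is left out. Those fits were therefore no check of their direction. Ebp and Insig2 changed sign in 5 or more alternatives. Deviations of same-numbered WT and Fpr2KO libraries had correlations over genes of 0.41 for replicate 2 and 0.24 for replicate 4. For these 2 numbers the same-numbered Fpr2KO library was the best match. For replicates 1, 3 and 5 the correlations were -0.26, -0.13 and -0.36, and another library matched best. The levels compared carry the GC slopes of the libraries, so these values cannot settle whether the numbers pair the samples. The replicate block (64 genes over all, 0 of the 31) is given only here.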
